A study of Homo sapiens with 4 samples.

Results

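The genes described here are 46 genes of the extracellular matrix and of the mesenchymal state: collagens, laminins, nidogens, the matrix glycoproteins SPARC, FN1, FBLN1 and FBN1, the cadherins, vimentin, the transcription factors of epithelial-mesenchymal transition (EMT) and the integrin subunit ITGA5. A gene was read where a probe set of the array carried its symbol and no other, which held for 45 of the 46 and left out COL17A1, among 19775 genes read in all. Where a gene had several probe sets, the one with the highest mean over the arrays represented it, and the others served as a check. The cells were HuH7, a line from a human hepatocellular carcinoma grown in medium with fetal bovine serum, measured on Affymetrix Human Genome U133 Plus 2.0 arrays. Wild-type KDM6B cells gave 2 arrays. The other 2 arrays came from KDM6B knockout cells, made with CRISPR/Cas9 and one guide, selected with G418 and expanded as subclones by limiting dilution. KDM6B encodes a demethylase that removes methyl groups from H3K27, a mark of silenced genes. It is not stated in the labels if the 2 knockout arrays are different subclones, if arrays of a group are separate cultures, or if the wild-type cells were transfected or cloned. The spread behind every p-value is thus the spread of these 4 samples and may be technical, and the effect of losing KDM6B and that of subcloning cannot be told apart.

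Values are log2 expression values per probe set, so a difference of 1 is a 2-fold change, and differences are knockout minus wild type throughout. Over all probe sets the correlation of replicates was 0.992 for the wild-type pair and 0.994 for the knockout pair. KDM6B itself read 8.46 and 8.27 in wild type against 7.95 and 8.14 in knockout, and the difference did not pass the test (limma adjusted p = 0.235). A cut by Cas9 need not lower an mRNA, so this level does not check the labels. Markers of the hepatocyte lineage were strong on all 4 arrays, with ALB between 13.70 and 13.96 and AFP between 13.70 and 13.80. Of 9 such markers measured, 3 fell (APOB, SERPINA1 and FGB) and 0 rose, where 3.94% of all genes were called lower and 3.14% higher at the threshold used throughout, a limma adjusted p under 0.05.

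Collagens are proteins whose chains wind into triple helices. The fibrillar types build fibrils, the fibril-associated types lie on the surface of those fibrils, and type IV forms the network of basement membranes together with laminins and nidogens. In the liver most fibrillar collagen comes from stellate cells and fibroblasts, whereas hepatocytes secrete plasma fibronectin. In epithelial-mesenchymal transition, factors of the SNAI, TWIST and ZEB families repress the epithelial cadherin CDH1, and cells gain vimentin and the cadherin CDH2.

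Several matrix genes were higher in knockout, and none of the 9 EMT and adhesion genes passed the test. Of the 45 measured genes, 10 were higher in knockout (22.2%), 0 were lower and 35 did not pass, where a gene was called at a limma adjusted p under 0.05. Over all 19775 genes 3.14% were called higher and 3.94% lower, or 7.07% either way. The members were chosen with earlier results of these data known, so their share is no independent test against that of all genes. At an unadjusted limma p under 0.05, 14 of the genes were higher and 3 were lower (NID2, VIM and LAMB3), against 8.72% and 11.3% of all genes. The rises were those of COL14A1, SPARC, COL2A1, COL12A1, COL5A2, COL6A1, COL9A2, LAMA5, FBLN1 and LAMC1. Their sizes ran from 1.42-fold for LAMC1 to 9.16-fold for COL14A1, and 3 were 2-fold or more (COL14A1, SPARC and COL2A1), as were 1.29% of all genes upward and 1.24% downward. The median difference of the 45 was 0.10 and that of all genes 0.01. By class, 2 of 7 fibrillar collagens rose, 2 of 13 basement membrane genes, 4 of 12 measured other collagens, 2 of 4 glycoproteins and 0 of 9 EMT and adhesion genes. Class medians were 0.13, 0.02, 0.10, 0.59 and -0.09 in that order. Leaving out either wild-type array (wild type 1 or wild type 2) lowered the count to 3, and leaving out either knockout array (knockout 1 or knockout 2) lowered it to 1. COL14A1 was called in each of these fits, and SPARC and COL2A1 in those that left out a wild-type array.

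The largest rise was that of a fibril-associated collagen. Among the members 3 of 4 genes of this kind rose, where 3.14% of all genes were called higher. This grouping was made after the values were seen, and genes of this kind outside the member list were not counted. COL14A1, which encodes a collagen that binds the surface of collagen fibrils, read 5.32 and 5.43 in wild type against 8.39 and 8.75 in knockout. The groups were far apart, with a gap of 2.96 between the nearest arrays. The difference was 3.20 (SE 0.16, 95% interval 2.80 to 3.59, limma adjusted p = 0.00132). COL12A1, its close relative, read 7.27 and 6.97 in wild type against 8.04 and 8.16 in knockout, and rose 1.97-fold (0.97, SE 0.14, limma adjusted p = 0.0191). COL9A2, a chain of the fibril-associated collagen of cartilage, read 6.10 and 6.28 against 6.86 and 6.82. Its rise of 0.65 (SE 0.13) was near the threshold, at limma adjusted p = 0.0474. COL16A1, another of this kind, read 5.02 and 4.75 in wild type against 5.02 and 4.92 in knockout, so its groups overlapped (0.09, limma adjusted p = 0.868).

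Among the matrix glycoproteins SPARC stood out. It encodes osteonectin, a calcium-binding protein that binds collagen and shapes fibril assembly. SPARC read 5.70 and 5.41 in wild type against 8.13 and 8.43 in knockout, a 6.61-fold rise (2.73, SE 0.17, 95% interval 2.31 to 3.14, limma adjusted p = 0.00204). FBLN1, the fibulin-1 gene of elastic fibres and basement membranes, read 9.87 and 9.94 in wild type against 10.60 and 10.46 in knockout. It rose 1.54-fold (0.62, SE 0.09, limma adjusted p = 0.0206), and the gap between its groups was 0.52. FBN1, which encodes the microfibril protein fibrillin-1, read 5.48 and 5.54 against 6.23 and 5.90 and did not pass (0.55, SE 0.17, limma adjusted p = 0.128). FN1, the fibronectin gene, was the glycoprotein with the smallest difference. It read 12.68 and 12.58 in wild type against 12.83 and 12.80 in knockout (0.19, 95% interval -0.01 to 0.39, limma adjusted p = 0.276). All 4 glycoproteins had both knockout arrays above both wild-type arrays, a pattern found in 22.4% of all genes.

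**Figure D1:**
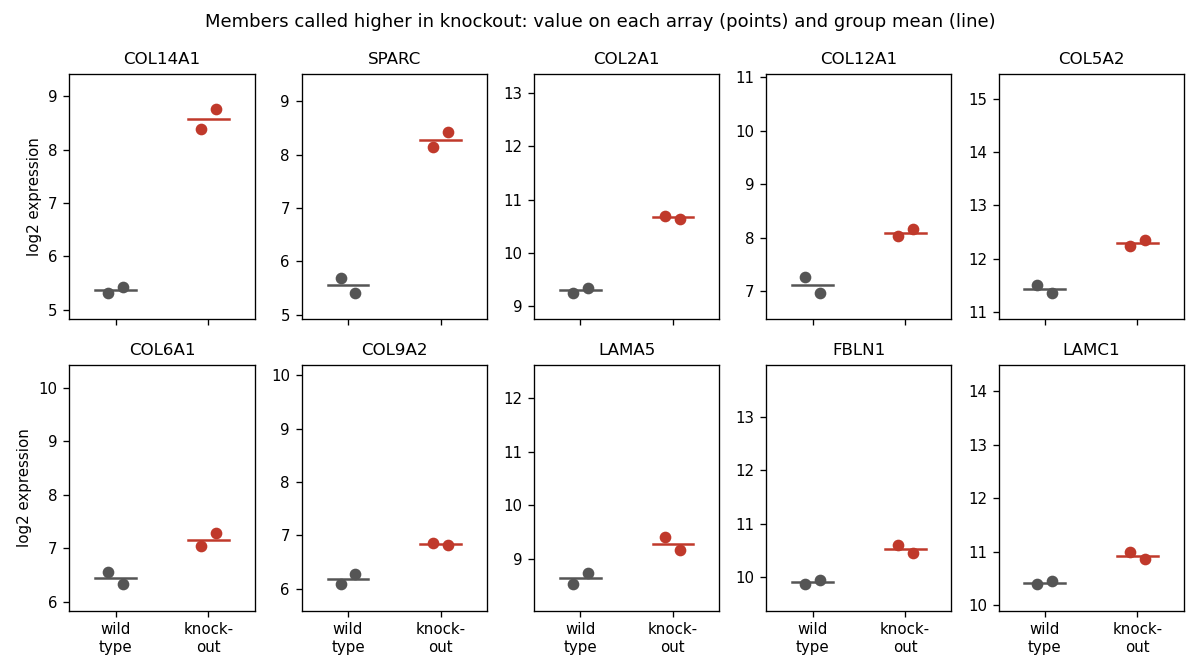
Log2 expression on each array (points, 2 per group) and group means (lines) of the 10 genes called higher; each panel has its own starting level and the same height of axis. In every panel both knockout arrays lie above both wild-type arrays, by 2.96 for COL14A1 and by 0.42 for LAMC1.

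RefSeq windows of 300 bases on GRCh38.p14, from 250 before the start of the transcript to 50 after it, were at hand for 6 of the 10 called genes (SPARC, FBLN1, LAMC1, COL12A1, LAMA5 and COL9A2), and 4 are shown to set SPARC beside them. In the SPARC window (chr5:151686866-151687165, minus strand) the capitals mark GGAGG or its reverse complement, and the others have GGGCGG or its reverse complement in capitals.
SPARC: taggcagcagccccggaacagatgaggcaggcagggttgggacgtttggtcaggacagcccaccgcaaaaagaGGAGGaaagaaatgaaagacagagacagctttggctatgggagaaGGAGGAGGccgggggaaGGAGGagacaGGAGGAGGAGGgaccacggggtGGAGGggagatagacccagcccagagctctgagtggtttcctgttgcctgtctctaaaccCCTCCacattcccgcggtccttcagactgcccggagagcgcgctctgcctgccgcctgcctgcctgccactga
FBLN1 (chr22:45502633-45502932, plus strand): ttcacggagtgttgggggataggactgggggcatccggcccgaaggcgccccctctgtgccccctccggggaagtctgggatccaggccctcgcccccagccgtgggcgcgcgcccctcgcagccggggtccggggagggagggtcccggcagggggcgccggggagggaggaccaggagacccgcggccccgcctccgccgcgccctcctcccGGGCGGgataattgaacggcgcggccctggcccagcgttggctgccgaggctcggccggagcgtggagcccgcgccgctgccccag
LAMC1 (chr1:183023170-183023469, plus strand): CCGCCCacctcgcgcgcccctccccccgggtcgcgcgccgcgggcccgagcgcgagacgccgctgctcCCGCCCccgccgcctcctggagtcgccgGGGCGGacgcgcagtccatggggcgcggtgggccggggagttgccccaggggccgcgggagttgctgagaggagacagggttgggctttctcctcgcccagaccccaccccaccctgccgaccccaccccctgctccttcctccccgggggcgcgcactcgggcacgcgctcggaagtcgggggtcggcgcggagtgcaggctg
COL12A1 (chr6:75206004-75206303, minus strand): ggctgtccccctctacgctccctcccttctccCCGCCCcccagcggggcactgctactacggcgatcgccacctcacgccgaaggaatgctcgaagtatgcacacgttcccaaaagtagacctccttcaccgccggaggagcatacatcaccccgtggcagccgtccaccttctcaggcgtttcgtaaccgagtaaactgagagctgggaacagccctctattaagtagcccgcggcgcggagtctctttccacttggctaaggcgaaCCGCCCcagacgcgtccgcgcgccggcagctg

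The SPARC window held 9 matches to GGAGG counted over both strands, overlapping matches included, and FBLN1 held 8. Members that were not called held as many or more, with 12 in COL6A3, 10 in COL13A1 and 9 in CDH2, so the count does not set SPARC apart. At least 9 occurred in 1.59% of 35116 windows of all genes, and at least 1 in 77.4%. The SPARC window held 0 matches to GGGCGG, the GC box, which all 5 other windows of called genes held (1 in FBLN1, 2 in COL12A1, 3 in LAMC1) and which 45.0% of all windows hold. Members that were not called had either, with 0 in COL6A3, COL4A4 and FBN1 and 6 in FN1. CG dinucleotides numbered 11 in the SPARC window and 29 to 41 in the other 5, with a median of 14 over all windows. Uncalled members ranged as widely, with 4 in COL6A3, 10 in VIM and 38 in FN1, so neither count sets SPARC apart. TATAAA and CCAAT, found in 11.5% and 34.6% of all windows on either strand, were in 0 of these 6. These are matches of letters and not measured binding.

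Of the fibrillar collagen genes, 2 rose, and COL1A1, COL1A2 and COL3A1 were not called on their brightest probe sets. COL2A1, the main collagen of cartilage, read 9.26 and 9.35 in wild type against 10.70 and 10.64 in knockout. It rose 2.58-fold (1.37, SE 0.09, 95% interval 1.15 to 1.59, limma adjusted p = 0.00244). COL5A2, a chain of the minor fibrillar collagen that starts fibrils, read 11.51 and 11.37 against 12.23 and 12.35, a 1.81-fold rise (0.85, SE 0.09, limma adjusted p = 0.00868). COL5A1, which encodes the partner chain, read 4.36 and 4.58 in wild type against 4.60 and 4.54 in knockout (0.10, limma adjusted p = 0.845). The 2 chains of this collagen therefore differed in call, although the difference between them was not tested. COL3A1, a neighbour of COL5A2 on chromosome 2, was near the bottom of the scale, at 3.36 and 3.73 against 3.82 and 3.54 (0.13, limma adjusted p = 0.827). COL1A1 and COL1A2, the chains of type I collagen, gave 0.13 (95% interval -0.23 to 0.49) and 0.14 (95% interval -0.28 to 0.56). COL11A1 gave 0.04.

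For COL1A1 the outcome depended on the probe set. The brightest read 6.86 and 7.17 in wild type against 7.15 and 7.14 in knockout, within the replicate spread. A second read 6.61 and 5.85 against 7.44 and 7.88, a difference of 1.43 (SE 0.28) whose adjusted p over all probe sets was 0.0582. The others gave 0.71, 0.53 and -0.05, and none of them was called. With the mean of all 5 probe sets the gene was called (0.55, limma adjusted p = 0.0470).

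In the basement membrane class the laminin chains LAMA5 and LAMC1 rose and type IV collagen did not. LAMA5, an alpha chain of epithelial laminins, read 8.53 and 8.73 in wild type against 9.40 and 9.16 in knockout (0.65, SE 0.13, limma adjusted p = 0.0432). The array design marks its only probe set as one that can match several transcripts, which may belong to the same gene. Probe sets with such marks are called cross-hybridising below. Leaving them out moves a gene to another probe set, or drops it if it has no other. LAMC1, the gamma chain of most laminins, read 10.40 and 10.44 against 10.99 and 10.86 (0.51, SE 0.09, limma adjusted p = 0.0315). LAMB1, a beta chain that assembles with these, read 10.72 and 10.07 in wild type against 10.12 and 10.77 in knockout. Its replicates lay 0.65 apart in wild type and 0.66 apart in knockout, so a shift within its interval of -0.66 to 0.76 could not be seen. LAMB2 gave -0.03 and LAMB3, a chain of the laminin of epidermal anchorage, gave -0.40 (limma adjusted p = 0.216).

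The nidogens, which link laminin to type IV collagen, had negative differences. NID2 read 5.21 and 5.01 in wild type against 4.49 and 4.59 in knockout, with no overlap (-0.57, SE 0.16, limma adjusted p = 0.108). NID1 read 10.85 and 10.49 against 10.29 and 10.58, with overlap (-0.23, limma adjusted p = 0.526). Neither passed.

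The 6 type IV collagen genes lie as 3 head-to-head pairs, each read from a shared stretch between the starts. In RefSeq the starts of COL4A1 and COL4A2 are 127 bases apart, those of COL4A4 and COL4A3 136 and those of COL4A6 and COL4A5 380. Of these genes 0 were called, with differences from -0.21 for COL4A5 to 0.49 for COL4A4. COL4A1, COL4A4, COL4A5 and COL4A6 lay below the 25th percentile of all probe sets on every array (percentiles between 3.53 and 3.67), so a level above background was not shown for them. COL4A2 read 4.06 and 4.29 in wild type against 4.17 and 4.04 in knockout, and COL4A3 read 4.67 and 4.62 against 4.59 and 4.76. Both pairs of groups overlapped.

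Among the remaining collagens the rise of COL6A1 was uncertain, and whether COL18A1 was called depended on the probe set. COL6A1, a chain of the beaded filaments of type VI collagen, read 6.55 and 6.33 in wild type against 7.04 and 7.28 in knockout (0.72, SE 0.15, limma adjusted p = 0.04998). It had 8 probe sets, and the 7 others ran from -0.16 to 0.25, so the call rested on 1 probe set. It ended with the mean of all 8 (0.14, limma adjusted p = 0.638) and turned to -0.16 when cross-hybridising probe sets were left out. COL6A2 and COL6A3, the other chains of that collagen, gave 0.10 and -0.05. COL18A1, the source of endostatin, read 8.50 and 8.21 against 8.84 and 8.78 and did not pass (0.46, SE 0.13, limma adjusted p = 0.112). Its second probe set was called when all probe sets were tested (0.61, adjusted p = 0.0417), and so was the mean of both (0.54, limma adjusted p = 0.0209). COL7A1 of anchoring fibrils gave -0.19, COL13A1 -0.12, COL15A1 -0.14 and COL8A1 0.01, the last 2 below the 25th percentile on all arrays.

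The mesenchymal and cadherin genes gave 0 calls of 9. VIM, the vimentin gene, read 6.06 and 5.73 in wild type against 5.25 and 5.48 in knockout, lower without overlap but not passing (-0.53, SE 0.18, limma adjusted p = 0.177). CDH1, the epithelial cadherin, read 12.19 and 11.87 against 12.31 and 12.43 (0.34, SE 0.12, limma adjusted p = 0.209). CDH2, the neural cadherin, read 9.53 and 9.37 against 9.29 and 9.32 (-0.15, 95% interval -0.39 to 0.10). Groups lay apart upward for 2 of the 9 genes (CDH1 and SNAI1) and downward for 4 (VIM, CDH2, SNAI2 and ZEB1), as they did for 22.4% and 23.5% of all genes. SNAI1, a repressor of CDH1, read 6.21 and 6.48 against 6.71 and 6.78 (0.40, limma adjusted p = 0.206). SNAI2 and TWIST1 were below the 25th percentile on all 4 arrays, and ZEB2 gave 0.17 at levels of 3.19 to 3.77. ITGA5, the fibronectin receptor subunit, gave -0.09 (95% interval -0.54 to 0.35).

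ZEB1, another repressor of CDH1, was read differently by its 4 probe sets. The brightest gave 4.84 and 5.16 in wild type against 4.80 and 4.55 in knockout (-0.33, SE 0.19, limma adjusted p = 0.436). A second, with a lower mean over all arrays, gave 4.91 and 4.58 in wild type against 2.15 and 2.37 in knockout. That was the only probe set of the listed genes called lower when every probe set was tested (-2.49, SE 0.19, adjusted p = 0.00492), where 2.18% of all were. Its knockout values lay below the 25th percentiles of those arrays (3.67 and 3.59), so the size of the difference is uncertain. The other 2 gave -0.51 and 0.00, and neither was called. With the mean of the 4, ZEB1 was called lower (-0.83, limma adjusted p = 0.0179). Where in the ZEB1 transcripts these probe sets lie was not analysed here, and this gene was singled out after its values were seen.

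The measured genes had 123 probe sets in all, 34 genes having several and 11 having 1. When each of 41091 single-gene probe sets was tested, 13 of the 123 were called higher and 1 lower, against 1.67% and 2.18% of all. For SPARC, COL2A1 and COL5A2 both probe sets were called. The second SPARC probe set read 3.62 and 3.76 in wild type against 5.61 and 6.14 in knockout (2.19, SE 0.22). COL14A1 had 2 of 4 called, the second at 2.85 (SE 0.30), while its other 2 gave 0.32 each. FBLN1 had 2 of 5 called, and another at 0.70 was just above the threshold (adjusted p = 0.0572). The 5 COL12A1 probe sets all lay above 0, from 0.12 to 0.97, with 1 called. With the mean of all probe sets of a gene, COL14A1 dropped to 1.67 and was still called, while COL12A1 (0.45, limma adjusted p = 0.102), COL9A2 (0.48, limma adjusted p = 0.0734) and FBLN1 (0.43, limma adjusted p = 0.0575) were no longer called. COL6A1, COL9A2 and LAMA5 were not called in this larger family of tests, at adjusted p = 0.0649, 0.0617 and 0.0592.

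Around the called genes, neighbouring genes had median differences near 0. For each called gene the 10 nearest expressed genes on either side in RefSeq order (19 in all for COL6A1, near a chromosome end) were taken, expressed meaning at or above the median level of all genes. Their median differences ran from -0.23 around COL5A2 to 0.14 around COL2A1. Those around COL14A1 on chromosome 8 and SPARC on chromosome 5 were both -0.08. Of the 20 neighbours of COL2A1, 3 were called higher and 0 lower. Of the 20 of COL14A1, 1 was called higher and 3 lower. Over all genes the shares were 3.14% and 3.94%, and such counts were not tested. For LAMA5 on chromosome 20 the neighbours had a median of -0.21, against its own 0.65.

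Enzymes that modify and crosslink collagen included several called genes. Of 27 in this list, 6 rose, 1 fell and 20 did not pass, with a median of 0.21. P4HA2, a prolyl hydroxylase subunit that stabilises the triple helix, read 8.54 and 8.64 in wild type against 9.39 and 9.16 in knockout (0.69, SE 0.12, limma adjusted p = 0.0282). LOXL1, of the lysyl oxidase family of crosslinking enzymes, read 4.25 and 4.33 against 5.10 and 5.17 (0.84, SE 0.15, limma adjusted p = 0.0312). P3H2, a prolyl hydroxylase, rose by 1.14, but leaving out cross-hybridising probe sets gave -0.085. P4HA1, the collagen chaperone gene SERPINH1 and the glycosyltransferase gene COLGALT1 were the other rises, at 0.56, 0.60 and 0.47, and are named here to complete the count. MIA3, which loads procollagen for export from the endoplasmic reticulum, fell by 0.72 (SE 0.12, limma adjusted p = 0.0256).

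Matrix receptors gave 0 calls among 23 measured, with 4 higher and 2 lower at an unadjusted limma p under 0.05 and a median of 0.06. For CD44 the brightest probe set gave -0.50 and was not called. A dimmer one read 4.63 and 4.31 in wild type against 2.88 and 2.45 in knockout. It was called lower when all probe sets were tested (-1.81, limma adjusted p = 0.0152), with knockout values below the 25th percentiles of those arrays (3.67 and 3.59). Of 11 further laminins and basement membrane genes, 2 rose and 0 fell, with a median of 0.13. These were the proteoglycan gene AGRN (0.87, SE 0.11) and FRAS1 (0.70, SE 0.08). Leaving out cross-hybridising probe sets moved AGRN to a dimmer probe set, which gave 0.04. Another AGRN probe set, itself of the cross-hybridising kind, gave 0.96 and was called when all probe sets were tested (limma adjusted p = 0.0170). Of 25 further matrix proteins 1 was higher and 2 were lower, shares (4% and 8%) near the 3.14% and 3.94% of all genes, with a median of 0.09. MFAP2, a microfibril protein, rose by 0.89 (SE 0.12), and THBS4 (a thrombospondin) and SMOC1 fell by 0.86 and 0.76. Of 14 proteoglycans, 2 rose, the glypican genes GPC6 (0.72, SE 0.14) and GPC3 (0.39, SE 0.08), with a median of -0.02. Both were near the threshold, at limma adjusted p = 0.0395 and 0.0474. Neither was called when all probe sets were tested (limma adjusted p = 0.0541 and 0.0689).

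Genes of epithelial junctions rose in 5 of 23, with 0 lower, 18 not passing and a median of 0.19. At an unadjusted limma p under 0.05, 8 were higher and 3 lower. The claudin genes CLDN12, CLDN2 and CLDN3 gave -0.61, -0.60 and -0.56 and were not called. JUP, the plakoglobin gene of desmosomes and adherens junctions, read 9.57 and 9.56 in wild type against 10.20 and 10.21 in knockout (0.64, SE 0.08, limma adjusted p = 0.0142). ESRP1, an epithelial splicing factor, rose by 0.62 (SE 0.09) and the desmosomal plaque gene DSP by 0.57 (SE 0.12). DSP was near the threshold, at limma adjusted p = 0.0492, and was not called when all probe sets were tested (limma adjusted p = 0.0676). Over the 6 lists the shares called higher were 22.2% for collagen synthesis, 0% for matrix receptors, 18.2% for further basement membrane genes, 4% for further matrix proteins, 14.3% for proteoglycans and 21.7% for epithelial junctions, beside 3.14% of all genes. The lists were described by counts only, and differences between lists were not tested. They too were chosen with earlier results of these data known, so their shares are no independent test.

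Markers of other cell types were examined because matrix genes mark fibroblasts and stellate cells. Of 8 fibroblast markers 0 were called, with LUM and POSTN below the 25th percentile on all arrays and differences of -0.07 to 0.28. Their summed linear level was 209 and 217 in wild type against 240 and 227 in knockout. Of 6 stellate cell markers RELN fell (by 1.13, limma adjusted p = 0.0121) and 0 rose, and LRAT and NGFR were below the 25th percentile. Their sum was 210 and 214 in wild type against 180 and 183 in knockout. PECAM1 fell among 7 endothelial markers and LYZ among 5 measured leukocyte markers, and 0 were called higher in either list. The endothelial marker TEK had groups apart upward but did not pass (0.63, limma adjusted p = 0.103). Beside the counts of these short lists, 3.14% of all genes were called higher and 3.94% lower. The sums were 317 and 345 against 288 and 263 for endothelial markers and 2591 and 1700 against 659 and 995 for leukocyte markers, the latter carried mostly by LYZ. The hepatocyte list summed to 80133 and 74398 against 67961 and 70504. What part these markers have in the matrix results was not tested. Every array came from the HuH7 line, so these sums describe RNA levels and do not count cells of a type.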

How the data were processed

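Total RNA was purified and treated with DNase, per the labels' protocols. The deposited values are log2 expression values, made by the authors with RMA and the affy package per the submitters' processing notes. The deposited arrays were close but not identical in distribution, with medians from 4.96 to 5.05. Repeating quantile normalization called 798 genes higher and 767 lower, against 620 and 779 as deposited. The table held 54613 probe sets. The platform annotation gave 41091 of them 1 gene symbol, 1801 several and 11721 none. Only single-gene probe sets were used, of which 41037 matched RefSeq genes of GRCh38.p14 by Entrez identifier, and 0 symbols changed.

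Knockout was compared with wild type by limma 3.58.1 in R 4.3.3 (lmFit, eBayes with an intensity trend) over 19775 genes, with two-sided p-values adjusted by Benjamini-Hochberg over every gene tested and without a filter on dim genes. There were 2 residual and 3.62 prior degrees of freedom. Intervals are 95% intervals of the fit. With 2 arrays a group, the smallest p an exact permutation test allows is 0.333, which is why limma was used alone. The number of arrays limits the precision. Alternatives included the mean of all probe sets of a gene, other scalings, filters and blocks, and leaving out each array. The steps were tested on simulated data.

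The members and lists were chosen with earlier results of these data known. Text names every called member, each uncalled member whose groups were over 0.5 apart (0 genes), the brightest uncalled member of each class, and up to 3 called genes per further list and direction. Others are named with values for completeness. Promoter windows were those of RefSeq for 34 of the 46 genes. Tables and figures used Python 3.11.15, pandas 2.3.3 and matplotlib 3.10.9.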

Additional observations from a re-analysis of the deposited data

How the results depend on the processing

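The 10 members called became 5 without the intensity trend, 6 (of 38 testable) without probe sets that may cross-hybridise, 3 by a 2-fold difference alone and 3 with the number as a replicate block, and 1 to 3 when an array was left out (the lone array of a group is then assumed to vary like the other group). The 1399 genes called overall became 783, 826, 500, 175 and 37 to 192 in the same settings, and 2236 at an adjusted p under 0.10. Leaving out the trend lowered both counts, and the cause was not tested. Same-numbered arrays deviated in opposite ways (the replicate differences of the 2 groups correlated at -0.55 across genes, and genes are no independent replicates), so the numbers were not taken as pairing. The crossed replicate block, chosen after seeing the data, called 3662 genes and 14 members, 11 higher and 3 lower (NID1, NID2 and VIM, which were not called as reported). Without cross-hybridising probe sets COL6A1 turned to -0.16 and P3H2 turned to -0.085, each then read from a dimmer probe set. Of the 35 uncalled members, 20 changed sign in at least 1 setting and 7 were called in at least 1. COL14A1 was called in all 13 settings with a test at an adjusted p under 0.05 (adjusted p 0.00012 to 0.0431), SPARC and COL2A1 in 11 of 13.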

Other observations

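Some genes of these lists outside the calls had replicate arrays that lay apart. Of these, 3 with positive differences are given, chosen after their values were seen. Others were negative, such as SEC24D, at 8.40 and 6.95 in wild type against 6.23 and 7.54 in knockout (-0.79). ITGB8, an integrin subunit that activates latent TGF-beta, read 7.59 and 6.71 in wild type against 8.20 and 9.13 in knockout (1.52, SE 0.39, limma adjusted p = 0.0903). MATN3, a cartilage matrilin, read 6.97 and 5.95 against 6.99 and 8.03 (1.05, SE 0.45, limma adjusted p = 0.277). NTN4, a netrin of basement membranes, read 5.45 and 4.92 against 5.99 and 6.35 (0.99, SE 0.23, limma adjusted p = 0.0700). In ITGB8, MATN3 and NTN4, as in LAMB1, wild type 1 exceeded wild type 2 and knockout 2 exceeded knockout 1. Among the 45 measured members the replicate differences of the 2 groups had opposite signs in 31, and in 14 of these wild type 1 and knockout 2 were the higher arrays. Across all genes these differences correlated at -0.55, so the pattern is not particular to matrix genes. The share of all genes with opposite signs was not counted.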
